A study of Mus musculus with 6 samples.

Results

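The 9 genes described here carry signals from death receptors or hold them back, and were taken by symbol from a table of 38739 genes: the ligands *Fasl* and *Tnfsf10*, the adaptors *Fadd*, *Tradd* and *Ripk1*, the protease *Casp8*, and the inhibitors *Cflar*, *Birc2* and *Birc3*. All 9 were found and all 9 were above 0 in at least 1 sample. After LPS, *Cflar* was 5.63-fold higher in mean level and was the 1 gene of the 9 that passed the limits of the comparison, while 0 of the 9 passed them downwards. Of all genes tested, 1.69% passed upwards and 1.31% downwards. The limits use an unadjusted p, and the adjusted p of *Cflar* was 0.058 by limma. The LPS samples also lay above every untreated sample for *Birc3*, which encodes the inhibitor cIAP2, with a mean 2.68-fold higher that did not pass. LPS samples lay above all untreated ones in 13.1% of all genes tested, and in 1473 of 6004 protein-coding genes with a mean of at least 1. *Casp8*, *Fadd*, *Tradd*, *Birc2*, *Ripk1* and both ligands had overlapping groups.

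Death receptors are members of the TNF receptor family that pass a signal through death domains. Ligands such as FASL and TRAIL bring FADD and pro-caspase-8 together into a complex in which caspase-8 cleaves itself into an active protease, and FLIP, the product of *Cflar*, resembles caspase-8 but lacks its protease activity and limits this step. At TNF receptor 1, TRADD and RIPK1 gather first, and the ubiquitin ligases cIAP1 and cIAP2 modify RIPK1 so that the complex signals to NF-κB rather than to cell death. Neutrophils are short-lived cells that die by apoptosis unless stimulated, and bacterial products such as LPS are known to prolong their life.

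The samples were neutrophils from the peritoneal cavity of cGAS knockout (cGAS-/-) mice of the C57B/L6 strain, which by the study's methods were 8-week-old males given thioglycolate to draw the cells into the cavity. cGAS is the cytosolic DNA sensor that makes cGAMP, and its gene was disrupted in all samples, controls included, so no wild-type sample was compared. Cells were cultured for 2 h with LPS from E. coli 026:B6 (n = 3, 500 ng/mL by the labels, whereas the study's methods give a lower dose for the sequenced cells) or with medium alone (untreated, n = 3), and the comparison asks how neutrophils lacking cGAS respond to LPS. The labels do not say whether the replicates of a group came from separate mice, so p-values measure only the spread between these samples.

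Levels are given as scaled TPM, a length-normalized transcript abundance that the authors divided by 1 factor per sample. For some genes the values are those of a mean over several transcripts and for others they show no such division, so levels of different genes are not on 1 scale. Sums over genes and remarks on low or high genes are rough for that reason, and tests compared samples only. The number of reads is unknown, and an exact 0 is written as listed at 0. *Cgas* itself was between 0.0286 and 0.307 scaled TPM in the 6 samples. Of the neutrophil markers, 9 of 12 were in the table, with summed levels of 9510 to 27000 scaled TPM in untreated and 14900 to 49500 in LPS samples, and *S100a8* and *S100a9* led them. B cell markers (7 of 8) summed to 282 to 1130 and 264 to 804, macrophage and monocyte markers (9 of 14) to 1140 to 1660 and 843 to 1220, and T and NK cell markers (10 of 13) to 15.7 to 20.6 and 8.63 to 21.7, all overlapping between groups. The macrophage and monocyte sum was mostly *Lyz2*, so it does not give the share of these cells. Some single markers inside the cell type sums did not overlap between groups, in both directions. Of the macrophage and monocyte markers, *Cd68* was at 157 to 179 in untreated and 230 to 381 in LPS samples, and *C1qb* at 0.712 to 4.75 and 17.3 to 23.9. Lower after LPS were *Lyz2* at 872 to 1370 and 532 to 695, *Ccr2* at 2.57 to 9.75 and 0.581 to 1.68, and *Mrc1* at 1.17 to 2.5 and 0.611 to 1.01. Of the neutrophil markers, *Hdc* was higher, at 21.0 to 46.3 and 61.4 to 82.6. The neutrophil markers *Cxcr2* (39.4 to 120 and 7.1 to 23.6), *Csf3r* (251 to 525 and 138 to 233) and *Il1r2* (43.6 to 88.6 and 38.1 to 43.0) were lower. The NK cell marker *Klrb1c* was listed at 0 in untreated and was at 0.151 to 0.195 in LPS samples. The eosinophil marker *Epx* was listed at 0 throughout, and red cell markers (5 of 6) ran from 21.5 to 5630 and from 165 to 4650, highest in replicate 3 of both groups. Protein-coding genes held 21.6 to 29.0% of the summed values in untreated and 50.6 to 60.0% in LPS samples, which do not overlap. Most of the rest was in pseudogenes, with 64.7 to 70.7% in untreated and 32.3 to 40.5% in LPS samples. The median change of the 6004 protein-coding genes with a mean of at least 1 scaled TPM was 0.37 on the log2 scale, against 0.01 for all 23049 genes tested. The part of these differences in the results was not tested, except where values on another scale are given. In bulk RNA, fewer cells of a type and less RNA per cell cannot be told apart.

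LPS was compared with medium on log2(scaled TPM + 1) with limma over all 23049 genes above 0 in any sample, and a gene was called at an unadjusted p under 0.01 with a log2 difference beyond 2, the limits in the study's methods. Differences on this scale understate the change of low genes. By these limits 389 genes (1.69%) rose and 301 (1.31%) fell, and 1 of the 9 genes (*Cflar*) rose. At an adjusted p under 0.05, 206 genes (0.894%) rose and 218 (0.946%) fell, with 0 of the 9 in either direction, and at an unadjusted p under 0.05 2370 genes (10.3%) rose, with 2 of the 9 (*Cflar* and *Birc3*), and 1535 (6.66%) fell, with 0 of the 9. The groups did not overlap, with LPS higher, for 3026 genes (13.1%), among them the same 2 of the 9, and with LPS lower for 2248 (9.75%), with 0 of the 9. The median log2 difference of the 9 was 0.45, and 7 of the 9 differences were above 0. Over all genes tested 12200 of 23049 were above 0, and over all 12754 protein-coding genes tested 7441 were, with a median of 0.04. Over the 6004 protein-coding genes with a mean of at least 1 scaled TPM 3884 were, with a median of 0.37. The count and median of the 9 were near this last background, although *Fasl* and *Tnfsf10* had means under its limit of 1 scaled TPM. Of these 6004 genes, 295 rose by the limits, and 1228 were higher at an unadjusted p under 0.05 by limma. For 1473 of them the groups did not overlap, with LPS higher. The 9 genes are all protein-coding, and 2 of the 9 was near these last 2 shares.

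**Figure D1:**
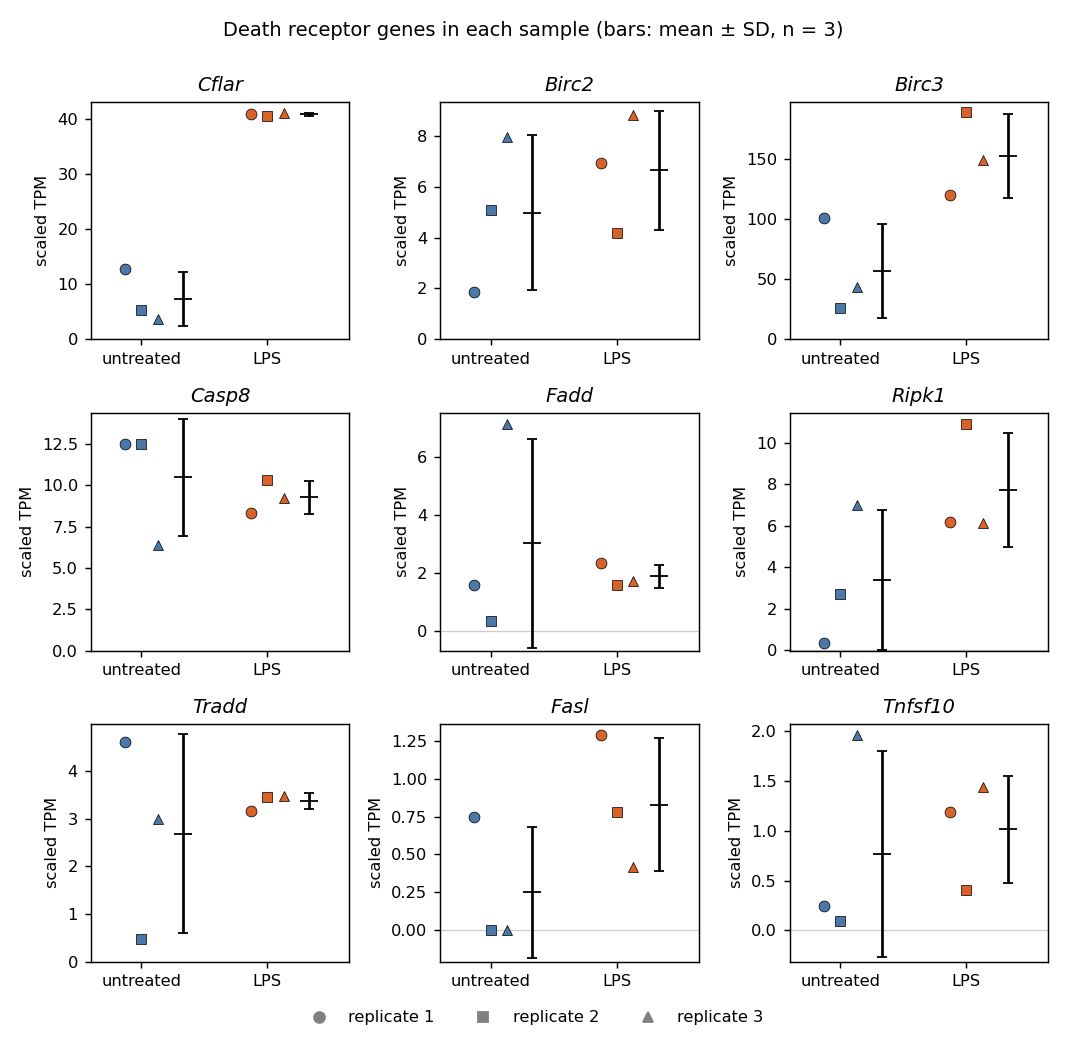
Level of each of the 9 genes in each sample, in scaled TPM on an axis of its own that starts at or below 0, with untreated samples in blue and LPS samples in orange. Marker shape gives the replicate number and the bars give mean ± SD (n = 3); the LPS points of *Cflar* and *Birc3* lie above all their untreated points, and the other 7 genes overlap.

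The death ligands were low, with no value above 1.96 scaled TPM in any sample. *Fasl* (ENSMUSG00000000817, chr1:161608258-161616075, minus strand, GRCm39), which encodes the FAS ligand carried by killer lymphocytes, was at 0.75 scaled TPM in untreated replicate 1, was listed at 0 in untreated replicates 2 and 3, and was at 1.29, 0.783 and 0.416 in LPS replicates 1 to 3. All 3 LPS samples had a value, but the lowest of them was under untreated replicate 1. The difference was 0.58 on the log2 scale (SE 0.33, 95% interval -0.23 to 1.38, adjusted p = 0.44 by limma), and no fold is given against values of 0. The size of that difference was set by the pseudocount, at 2.07 with 0.1 and 0.15 with 5. *Tnfsf10* (ENSMUSG00000039304, chr3:27371033-27396576, plus strand) encodes TRAIL, the ligand of the TRAIL death receptor. It was at 0.243, 0.0953 and 1.96 scaled TPM in untreated and at 1.19, 0.41 and 1.44 in LPS replicates 1 to 3, so that the highest value of all was an untreated one. Its means were 0.766 ± 1.04 and 1.02 ± 0.539 (SD, n = 3), a log2 difference of 0.30 (SE 0.49, interval -0.89 to 1.49, adjusted p = 0.75 by limma). Without 1 sample at a time that difference ran from 0.03 (without untreated replicate 2) to 0.75 (without untreated replicate 3), and with a pseudocount of 0.1 it was 0.96. The T and NK cell markers, from cells that are rich in FASL, ranged in single samples from 0 (*Klrb1c*, *Ncr1*, *Nkg7* and *Cd247*) to 8.37 scaled TPM (*Cd3e*), and their part in the level of *Fasl* was not tested.

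The 3 adaptors varied more among untreated than among LPS samples. *Fadd* (ENSMUSG00000031077, chr7:144131055-144136211, minus strand) encodes the adaptor that links receptor to caspase-8. It was at 1.59, 0.344 and 7.12 scaled TPM in untreated and 2.35, 1.6 and 1.71 in LPS replicates 1 to 3, with untreated replicate 3 far above all the others and untreated replicate 2 below them. The log2 difference was -0.09 (SE 0.68, interval -1.74 to 1.56, adjusted p = 0.95 by limma). It was 0.62 without untreated replicate 3 and 0.005 with the factor per sample removed, so its direction depends on the samples and the scaling. *Tradd* (ENSMUSG00000031887, chr8:105984883-105996354, minus strand), the adaptor of TNF receptor 1, was at 4.6, 0.474 and 2.99 scaled TPM in untreated and 3.17, 3.45 and 3.47 in LPS replicates 1 to 3. The LPS samples lay close together, between the lowest and the highest untreated value, and the log2 difference of 0.44 (SE 0.54, interval -0.87 to 1.76, adjusted p = 0.66 by limma) became -0.12 without untreated replicate 2. *Tradd* overlaps 3 protein-coding genes on the opposite strand (*Phaf1*, *Fbxl8* and *Hsf4*), and although the library kit keeps the strand, the strand setting of the quantification is not given in the sources used here.

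*Ripk1* (ENSMUSG00000021408, chr13:34186141-34221130, plus strand) encodes the kinase that cIAP1 and cIAP2 ubiquitinate at the TNF receptor. It was at 0.359, 2.73 and 7.02 scaled TPM in untreated and 6.18, 10.9 and 6.14 in LPS replicates 1 to 3. Untreated replicates 1 and 2 were below all LPS samples, and untreated replicate 3 was above LPS replicates 1 and 3. The means, 3.37 ± 3.38 and 7.73 ± 2.72 (SD, n = 3), differed 2.29-fold, and the log2 difference was 1.30 (SE 0.68, interval -0.37 to 2.97, adjusted p = 0.39 by limma). Without untreated replicate 1 that difference was 0.63, and without untreated replicate 3 it was 1.91. The pseudogene *Gm17084* lies within *Ripk1* on the same strand and shares 511 bases with it at 100% identity. Reads of these genes could have been split between them, and the part of this in the level of *Ripk1* was not tested. *Gm17084* was at 7.67 scaled TPM in untreated replicate 1, was listed at 0 in untreated replicates 2 and 3, and was at 1.27 to 3.5 after LPS.

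*Casp8* (ENSMUSG00000026029, chr1:58834375-58886665, plus strand), the initiator caspase of the pathway, was at 12.5, 12.5 and 6.41 scaled TPM in untreated and 8.29, 10.3 and 9.22 in LPS replicates 1 to 3. The LPS samples again fell between the untreated extremes. The means were 10.5 ± 3.54 and 9.26 ± 0.997 (SD, n = 3) and the log2 difference was -0.11 (SE 0.35, interval -0.97 to 0.75, adjusted p = 0.87 by limma). The sign of this small difference turned to 0.06 with the factor per sample removed and was -0.56 with protein-coding genes set to an equal sum.

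*Casp8* lies 36.3 kb beyond the end of *Cflar* on the same strand, and *Birc2* and *Birc3* are likewise neighbours on the minus strand of chromosome 9, 8.7 kb apart. Within each pair the gene of the stronger LPS difference, *Cflar* or *Birc3*, stands beside one whose groups overlap, so the start regions of all 4 are shown, each as the RefSeq window from 250 bases before to 50 bases after the annotated start, read 5′ to 3′ on the gene's strand, with CpG dinucleotides in capitals.
Cflar chr1:58750400-58750699 (plus): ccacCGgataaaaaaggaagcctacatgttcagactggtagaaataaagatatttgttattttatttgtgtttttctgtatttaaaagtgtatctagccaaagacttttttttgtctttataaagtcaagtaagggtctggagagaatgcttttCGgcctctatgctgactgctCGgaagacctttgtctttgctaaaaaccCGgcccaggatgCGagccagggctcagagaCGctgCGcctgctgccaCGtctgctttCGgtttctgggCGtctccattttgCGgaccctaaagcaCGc
Casp8 chr1:58841411-58841710 (plus): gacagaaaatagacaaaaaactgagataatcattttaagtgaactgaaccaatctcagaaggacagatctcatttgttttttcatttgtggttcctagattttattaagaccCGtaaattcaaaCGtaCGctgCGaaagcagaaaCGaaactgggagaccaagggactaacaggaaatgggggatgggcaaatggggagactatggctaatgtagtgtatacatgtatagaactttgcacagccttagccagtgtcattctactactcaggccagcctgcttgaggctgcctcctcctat
Birc3 chr9:7873122-7873421 (minus): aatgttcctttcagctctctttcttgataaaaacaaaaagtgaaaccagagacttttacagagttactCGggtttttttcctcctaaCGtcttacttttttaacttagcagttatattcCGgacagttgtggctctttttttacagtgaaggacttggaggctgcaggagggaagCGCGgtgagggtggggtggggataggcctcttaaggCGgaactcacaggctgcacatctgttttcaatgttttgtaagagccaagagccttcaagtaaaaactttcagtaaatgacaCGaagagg
Birc2 chr9:7837009-7837308 (minus): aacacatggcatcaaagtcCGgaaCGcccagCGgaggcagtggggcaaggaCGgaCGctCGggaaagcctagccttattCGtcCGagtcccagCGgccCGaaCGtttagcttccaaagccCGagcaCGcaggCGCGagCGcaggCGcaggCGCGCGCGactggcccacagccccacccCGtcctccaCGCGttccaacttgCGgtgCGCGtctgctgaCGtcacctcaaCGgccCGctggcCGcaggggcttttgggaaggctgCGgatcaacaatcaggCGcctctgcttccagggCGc
The positions are on GRCm39, found by exact match. The windows of *Casp8* and *Cflar* lie wholly inside the GENCODE extents of these genes, so neither is at the outermost annotated start. RefSeq windows were held for 8 of the 9 genes (10 windows), with no entry for *Tradd*. The median over 32851 windows was 7 CpG. The window shown for *Birc2*, the upstream one of its 2, had 34, more than or as many as 93.0% of windows, and its other window had 21 (76.9%). *Cflar* had 12 (62.1%), *Birc3* 7 (51.4%) and *Casp8* 5 (43.6%). The NF-κB consensus, searched on both strands, was in 0 of the 10 windows and in 5.8% of all windows, and TATAAA on either strand was in 1 of the 10, that of *Cflar* (position -132 from the start, on both strands with overlap), and in 13.6% of all windows. These letters describe the windows alone.

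*Cflar* (ENSMUSG00000026031, chr1:58750321-58798047, plus strand) was at 12.8, 5.3 and 3.62 scaled TPM in untreated replicates 1 to 3 and at 40.8, 40.5 and 41.1 in LPS replicates 1 to 3. Every LPS sample was more than 3-fold above the highest untreated sample, and the LPS samples were close to each other while the untreated ones were spread. The means were 7.24 ± 4.9 and 40.8 ± 0.253 (SD, n = 3), and the log2 difference was 2.50 (SE 0.46, 95% interval 1.39 to 3.61, adjusted p = 0.058 by limma). The unadjusted p of the same limma fit was 0.0015. *Cflar* therefore rose by the study's limits and missed an adjusted p of 0.05. Over 17 other settings the log2 difference ran from 1.97 to 2.95 and the adjusted p from 0.025 to 0.22, under 0.05 in 5 of them.

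Because protein-coding genes held a larger share of the values after LPS, levels were also set to an equal protein-coding sum in every sample. On that scale *Cflar* was at 16.4, 5.47 and 4.9 in untreated and 39, 28.6 and 39.1 in LPS replicates 1 to 3, and the groups still did not overlap. The log2 difference was 2.05 (adjusted p = 0.11 by limma) and still passed the study's limits. Untreated replicate 1, the highest of its group in *Cflar*, had the highest B cell marker sum of all samples, 1130 scaled TPM. Untreated replicate 3, the lowest of all samples in *Cflar*, had a sum of 1040, and the LPS samples had 264 to 804. The part of B cells in the level of *Cflar* was not tested. *Cflar* also shares at least 100 bases at 95% identity or more with 279 other genes, 3 of them over at least 300 bases, so the level of *Cflar* is uncertain in so far as reads could be shared. Of these 3, the pseudogene *Gm9845* was listed at 0 in all 6 samples, and the lncRNAs *Gm66452* and *Gm66692* were not analysed here.

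A ratio of 2 genes within a sample does not depend on how that sample was scaled, and 4 ratios were compared. The level of *Cflar* relative to *Casp8*, its partner in the receptor complex, was 1.02, 0.422 and 0.564 in untreated and 4.92, 3.94 and 4.45 in LPS replicates 1 to 3. The LPS ratios were all above the untreated ones, by 2.82 in the mean log2 ratio (-0.68 ± 0.65 against 2.14 ± 0.16, SD, n = 3), or 7.07-fold. The two-sided exact permutation test gave p = 0.10, the smallest that 3 against 3 samples can give, and 0.40 when adjusted over the 4 ratios. *Fadd* to *Casp8* (0.36 in log2, exact permutation p = 0.80) and *Ripk1* to *Casp8* (2.09, exact permutation p = 0.40) had overlapping groups. In these ratios only the change between samples has a meaning, since the 2 genes may be averaged over different numbers of transcripts. In untreated replicate 3, values of *Cflar* and *Birc3* fitted a mean over transcripts, with smallest divisors of 13 and 7. Those of *Casp8* and *Birc2* needed no divisor, so a ratio near 1 does not mean equal levels.

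**Figure D2:**
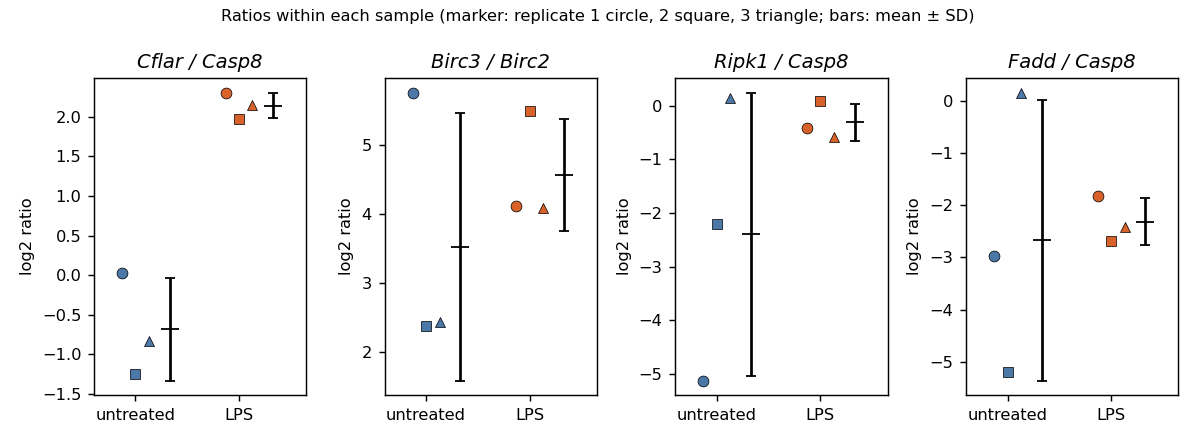
Log2 of the ratio of 2 genes within each sample, for 4 ratios, with untreated samples in blue and LPS samples in orange, marker shape for the replicate number and bars for mean ± SD (n = 3). The groups are apart for *Cflar* to *Casp8*, where untreated samples lie at or below a ratio of 1.02 and LPS samples at or above 3.94, and overlap for the other 3 ratios.

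*Birc3* (ENSMUSG00000032000, chr9:7845790-7873229, minus strand) was at 101, 26.3 and 43.2 scaled TPM in untreated and 120, 189 and 149 in LPS replicates 1 to 3. All LPS samples were above all untreated ones, but untreated replicate 1 came close to LPS replicate 1. The means were 57 ± 39.4 and 153 ± 34.3 (SD, n = 3), and the log2 difference was 1.60 (SE 0.53, interval 0.30 to 2.90, adjusted p = 0.20 by limma). The result turned on untreated replicate 1: without it the difference was 2.12 with an adjusted p of 0.078 by limma, which passes the study's limits. On the scale of an equal protein-coding sum *Birc3* was at 130, 27.2 and 58.5 in untreated and 115, 133 and 142 in LPS replicates 1 to 3, and the groups then overlapped (log2 difference 1.12).

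*Birc2* (ENSMUSG00000057367, chr9:7818227-7837120, minus strand), which encodes the related ligase cIAP1, was at 1.87, 5.08 and 7.96 scaled TPM in untreated and 6.94, 4.16 and 8.8 in LPS replicates 1 to 3. The groups overlapped, and the log2 difference was 0.45 (SE 0.52, interval -0.81 to 1.72, adjusted p = 0.64 by limma). The ratio of *Birc3* to *Birc2* was 54.3, 5.18 and 5.42 in untreated and 17.3, 45.3 and 17.0 in LPS replicates 1 to 3, with untreated replicate 1 the highest of all 6. The mean log2 ratio was 1.04 higher after LPS (exact permutation p = 0.50, adjusted 0.67), so a different response of the 2 genes was not shown. Their transcripts share a stretch of 168 bases at 97.0% identity, where reads could be assigned to either.

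**Figure D3:**
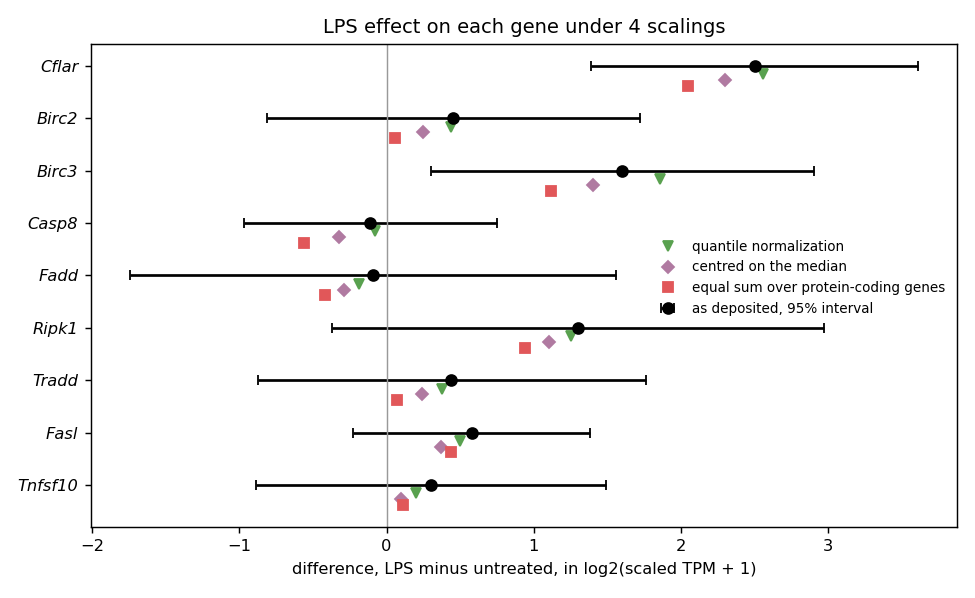
Difference between LPS and untreated samples in log2(scaled TPM + 1) for each of the 9 genes, as deposited with the 95% interval from limma (black circles and bars) and under 3 other scalings (coloured markers, without intervals). The interval lies above 0 for *Cflar* (1.39 to 3.61) and *Birc3* (0.30 to 2.90) and spans 0 for the other 7, and an equal protein-coding sum gives lower values than the deposited scale for all 9.

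The rest of the pathway was read from 5 lists by role, chosen with earlier results of these data known. They stand beside the 1.69% of all genes that rose and the 1.31% that fell, or 10.3% and 6.66% at an unadjusted p under 0.05. Of the 6004 protein-coding genes with a mean of at least 1 scaled TPM, 295 rose and 45 fell. At an unadjusted p under 0.05 by limma, 1228 of these 6004 were higher and 457 lower. A list of 25 genes held the TNF receptor signalling complex and related kinases, among them *Ripk2*, which serves the NOD receptors, and *Mapkapk2*. Of these 25 genes 18 were tested, and 6 rose, all with an adjusted p under 0.05 by limma, while 0 fell. At an unadjusted p under 0.05 by limma, 10 were higher and 1 was lower. The median log2 difference of the 18 was 1.50, against 0.45 for the 9 genes. *Traf1*, an adaptor that binds cIAP1 and cIAP2, was at 3.22, 5.83 and 3.39 scaled TPM in untreated and 58.1, 75.9 and 65.7 after LPS, a log2 difference of 3.74 (SE 0.32, adjusted p = 0.011 by limma). *Tnfaip3*, which encodes the NF-κB inhibitor A20, was at 27.7, 9.49 and 7.81 in untreated and 142, 194 and 153 after LPS (3.56, SE 0.51, adjusted p = 0.035 by limma). For both genes the groups were far apart, and untreated replicate 1 was the highest of its group in *Tnfaip3*, as it was in *Cflar* and *Birc3*.

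*Ripk2*, the kinase that serves the NOD receptors, was at 1.64, 6.7 and 1.17 scaled TPM in untreated and 54.5, 67.4 and 53.1 after LPS (log2 difference 4.06, SE 0.53, adjusted p = 0.029 by limma). *Tbk1*, a kinase of innate immune signalling, was at 8.26, 4.37 and 6.78 and at 46.6, 50.9 and 46.5 (2.75, SE 0.31, adjusted p = 0.021 by limma). The others that rose were *Map3k7*, which encodes the kinase TAK1 (2.25, adjusted p = 0.039 by limma), and *Mapkapk2*, a kinase downstream of p38 that phosphorylates RIPK1 (2.16, adjusted p = 0.043 by limma). They are named here after their values were seen. *Fadd*, *Tradd* and *Ripk1* did not pass the limits, and neither did most of the 18 genes of that list. Of the 18 differences 15 were above 0 and 3 below, those of *Traf2* (-0.77, SE 0.27), *Traf5* (-0.54, SE 0.38) and *Rbck1* (-0.54, SE 0.27). For *Traf2* and *Rbck1* the LPS samples lay below all untreated ones. These 3 were also named after their values were seen. Whether the changes of *Fadd*, *Tradd* and *Ripk1* differ from those of the list was not tested.

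Of 16 further receptors and ligands, 8 were tested and 0 rose or fell by limma, with 3 higher and 0 lower at an unadjusted p under 0.05. The 2 with the smallest p were *Tnfrsf1b*, which encodes TNF receptor 2, at 265, 313 and 253 scaled TPM in untreated and 739, 1260 and 893 after LPS (log2 difference 1.77, SE 0.31, adjusted p = 0.053 by limma), and *Tnfrsf26*, at 5.75, 8.11 and 3.97 and at 26.3, 15.6 and 17.8 (1.60, SE 0.37, adjusted p = 0.094 by limma). Both had LPS samples above all untreated ones and stayed under the limit of 2. *Tnfrsf1a*, which encodes TNF receptor 1 and was named after its values were seen, was at 5.75, 22.7 and 20.3 in untreated and 9.25, 22.3 and 9.28 after LPS, with overlapping groups (-0.16, SE 0.62). *Fas* and *Tnfrsf10b*, the receptors for the 2 ligands, were not analysed here.

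Among the other caspases 7 of 9 were tested and 1 rose. This was *Casp4*, which encodes caspase-11, the receptor for LPS in the cytosol, at 5.6, 2.66 and 3.92 scaled TPM in untreated and 52, 75.7 and 60.4 after LPS (log2 difference 3.68, SE 0.34, adjusted p = 0.014 by limma). The groups stood far apart for *Casp4*. Of 13 other IAP genes and IAP antagonists, 6 were tested and 1 rose: *Xaf1*, an antagonist of XIAP, at 2.74, 1.86 and 0.686 in untreated and 16.2, 6.23 and 16 after LPS (2.29, SE 0.51, adjusted p = 0.085 by limma). *Septin4*, of which 1 isoform is the IAP antagonist ARTS, was at 0.484, 1.05 and 0.459 and at 0.121, 0.159 and 0.135, without overlap but with a difference of -0.53 (SE 0.20, adjusted p = 0.25 by limma).

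Of 12 genes downstream of caspase-8 or in necroptosis, 10 were tested and 0 rose or fell by limma, with 1 higher and 1 lower at an unadjusted p under 0.05. *Bid*, the caspase-8 substrate that carries the signal to mitochondria, was at 2.08, 6.26 and 9.12 scaled TPM in untreated and 17.7, 23.1 and 25.8 after LPS, without overlap, and its log2 difference of 1.91 (SE 0.50, adjusted p = 0.12 by limma) was just under the limit of 2. *Dffb*, which encodes the nuclease that cuts DNA in apoptosis, was at 5.18, 3.52 and 3.12 and at 1.29, 1.16 and 1.58, again without overlap (-1.06, SE 0.31, adjusted p = 0.15 by limma). The median over the 10 genes was 0.

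**Figure D4:**
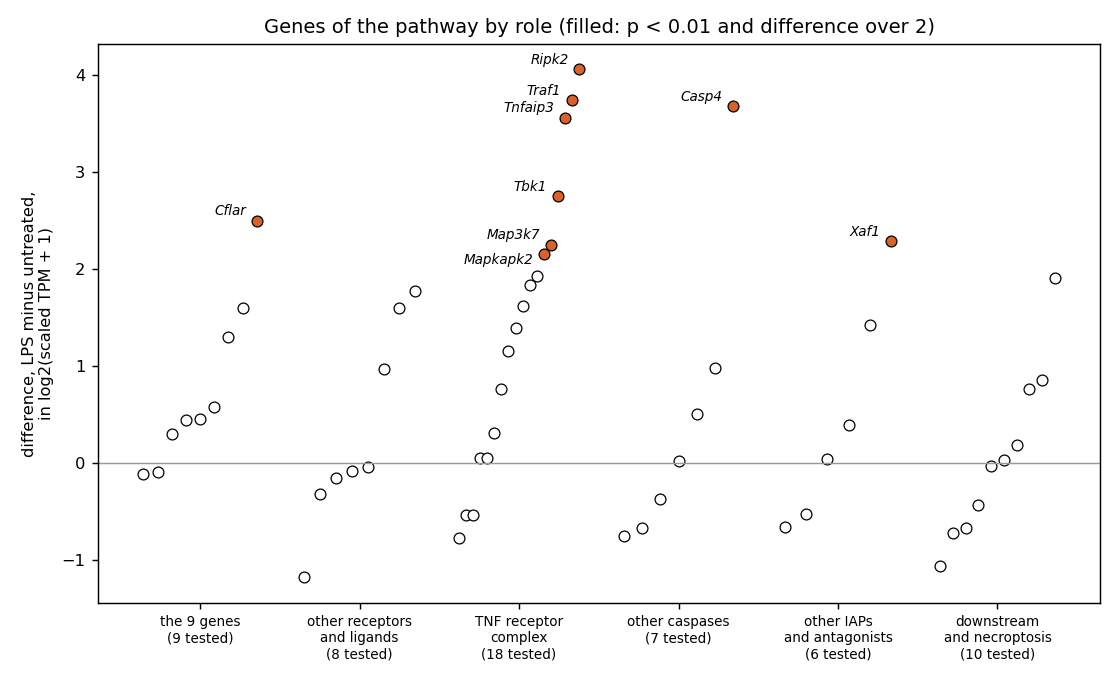
Difference between LPS and untreated samples in log2(scaled TPM + 1) for the 9 genes and for the genes tested in 5 further lists, each point 1 gene, ordered by value within its list. Filled points passed the limits of a call by limma. They are *Cflar*, *Casp4*, *Xaf1* and 6 genes of the list named TNF receptor complex, which also holds related kinases such as *Ripk2*. Downwards, 0 genes passed.

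For 3 of the genes, those with the most similar profile over the 6 samples were looked up among 4238 genes with a mean of at least 5 scaled TPM, by the root mean square difference of the log2 profiles after centring each on its mean. Closest to *Cflar* were *Vapb* (0.181), *Pdcd10* (0.226), *Plbd2* (0.23) and *Sirt2* (0.246), and all 4 had LPS samples above the untreated ones. Closest to *Birc3* were *Sap30l* (0.148), *Rhbdf2* (0.18), *Rffl* (0.228), *Crk* (0.23) and *Rhog* (0.23). These 5 had untreated replicate 1 as the highest untreated sample, as *Birc3* did. Closest to *Tnfsf10* were *Ybx1* (0.173), *Snrpb* (0.185), *Trnt1* (0.186), *Chsy1* (0.198) and *Thrap3* (0.198), in all of which untreated replicate 3 was the highest untreated sample, as in *Tnfsf10*. The genes were picked for their likeness over these 6 samples, so such shared features follow from the choice. All these profiles share the same 6 libraries and their scaling.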

How the data were processed

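RNA from 6 samples of cGAS-/- peritoneal neutrophils, 3 untreated and 3 with LPS, was sequenced by the authors, and titles and treatment labels gave the groups. The authors aligned reads to GRCm39 with STAR (mm10 is also named in the submitters' processing notes), used kallisto for transcript abundance and edgeR for normalization. The deposited values are called normalized counts, but they are kallisto TPM, with each sample divided by its own factor and, for part of the genes at least, averaged over transcripts. The factors, 0.861 to 1.117, were read from the values: 93.8 to 99.8% of 600 values per sample and stretch of the table return to 6 digits with them, against 40% by chance. All 895 genes tested with 1 annotated transcript needed no divisor, and of 1902 with several 647 needed 1 above 1 and 1223 did not. The versions of STAR and kallisto and the annotation release are not given in the sources used here. Read counts could not be recovered, so depth and its precision are unknown and count tests were not run. The table holds 0 columns of samples outside the series.

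Positions and types came from GENCODE M39 by name (35599 genes) or identifier (983), 1775 by RefSeq type alone, and 382 had no match. Testing left out 15690 genes without a value above 0. The other 23049 were tested two-sided with limma 3.58.1 in R 4.3.3 (lmFit, eBayes with trend) on log2(value + 1) over all 6 samples, without covariates, with Benjamini-Hochberg adjusted p values over all genes. Calls took an unadjusted limma p under 0.01 and an absolute log2 difference over 2. Log2 ratios of 2 genes within a sample were compared by exact permutation (scipy 1.17.1). Shared stretches were found with blastn 2.17.0 at 95% identity or more.

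The 9 genes, the lists and the tests were chosen with earlier results of these data known. Named genes are the 9, from each list up to 4 per direction with an adjusted p under 0.05 by absolute difference or else the 2 with the smallest p, and the 5 genes most like *Cflar*, *Birc3* and *Tnfsf10*. Some items that the rule names are not reported here. Alternatives were pseudocounts of 0.1 and 5, a mean of at least 1, genes at 0 kept, quantile normalization, centring on the median, an equal protein-coding sum, eBayes without trend, limits of 0.05 on p or adjusted p, a replicate block and leaving out each sample. Removing the factor, protein-coding genes alone and the block with an adjusted p were added after seeing the data.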

Additional observations from a re-analysis of the deposited data

How the results depend on the processing

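*Cflar* was the 1 gene of the 9 called in the comparison as reported, and 0 of the 9 were called lower under any setting. The number called higher became 0 with a pseudocount of 5 (*Cflar* 1.97 in log2, under the limit of 2), 0 at an adjusted p under 0.05 and 0 with the block at that limit, and 2 (*Cflar* and *Birc3*) at an unadjusted p under 0.05. Leaving out 1 sample at a time gave 1 to 2, the 2 without untreated replicate 1, where *Birc3* passed at 2.12. Over all genes, 389 higher and 301 lower became 856 and 493 with a pseudocount of 0.1, 129 and 168 with one of 5, and 206 higher at an adjusted p under 0.05. They became 2370 and 1535 at an unadjusted p under 0.05, 45 lower with protein-coding genes alone, 221 and 516 with an equal protein-coding sum, and 310 and 414 when centred on the median. Centring moved the median of all genes tested to -0.19. The cause of these shifts was not tested.

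Signs reversed for differences near 0 that no setting called. *Fadd* (-0.09) became 0.16 with a pseudocount of 0.1, 0.005 with the factor removed and -0.68 to 0.62 when 1 sample was left out. *Casp8* (-0.11) became 0.06 with the factor removed and -0.40 to 0.03 when 1 sample was left out, and in the same way *Birc2* (0.45) ranged from -0.0007 to 0.82 and *Tradd* (0.44) from -0.12 to 0.85. The reversals came without untreated replicate 3 for *Fadd*, 1 or 2 for *Casp8*, 1 for *Birc2* and 2 for *Tradd*. The log2 ratio of *Fadd* to *Casp8* (0.36) ranged from -0.90 to 1.77 when 1 sample was left out, the -0.90 without untreated replicate 2. That of *Ripk1* to *Casp8* (2.09) ranged from 0.72 to 3.35, *Birc3* to *Birc2* (1.04) from 0.47 to 2.16 and *Cflar* to *Casp8* (2.82) from 2.54 to 3.18. Under all these settings 141 values of the 9 genes kept their direction and their side of the limits and 8 reversed.

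Replicate numbers recur in both groups, but the labels name no shared mouse or day. Deviations from the group means correlated at 0.094, 0.199 and 0.083 between samples of the same number and at -0.131 to 0.053 otherwise. Each sample was thus closest to its own number, but 2 of the 3 values were under 0.1. Marker sums of neutrophils were highest in replicate 2 of both groups (27000 untreated, 49500 LPS). Those of B cells were highest in replicate 1 (1130 and 804) and those of red cells in replicate 3 (5630 and 4650). Macrophage and monocyte markers also peaked in replicate 2 of both groups (1660 and 1220). Eosinophil markers peaked in replicate 1 (8.52 and 5.31). Mast cell and basophil markers (41.8 and 51.3) and dendritic cell markers (6.23 and 4.69) did so in replicate 3. The highest replicate differed between the groups for T and NK cell and for mesothelial markers, the latter with sums of at most 0.811. Whether samples of the same number share a source was not tested, and in the main comparison the numbers were not treated as pairs. With the replicate block 387 genes were called higher and 303 lower, and 1 of the 9 (*Cflar*, 2.50, adjusted p = 0.13 by limma). At an adjusted p under 0.05 the block left 1 gene higher and 15 lower, with 0 of the 9.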
